A study of Homo sapiens with 11 samples.

Results

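The integrin subunits most used by lung epithelium were followed in lung adenocarcinoma (LADC) cells that stably expressed TRIM58 or carried an empty vector. The 10 genes were ITGA1, ITGA2, ITGA3, ITGA5, ITGA6, ITGAV, ITGB1, ITGB4, ITGB5 and ITGB6, out of 20249 genes that could be named on the array. They were found by the RefSeq accession of each probe, which gave 11 probes of 42405, 1 for each gene and a second for ITGA6.

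TRIM58 is an E3 ubiquitin ligase of the tripartite motif family. The cells were A549 and HCC827, both established LADC lines, of which HCC827 has mutant EGFR. TRIM58-WT cells had been infected with a retrovirus carrying the coding sequence of wild-type TRIM58 with a FLAG tag in the pMXs-Neo vector, mock cells with the virus of the empty vector, and all had been selected with G418. RNA of each cell sample was labelled with Cy3 and hybridised to a 1-colour Agilent array. There were 3 A549 mock, 3 A549 TRIM58-WT, 2 HCC827 mock and 2 HCC827 TRIM58-WT replicates on 11 arrays, since the first A549 mock sample was hybridised on an array of each slide and the mean of both arrays was used. Clones were isolated after selection, but which clone or crude pool each library came from is not given in the sources used here, so the tests measure the spread between these cell samples.

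Values are log2 spot signals relative to the 75th percentile of their array, so that 0 is the level below which 75% of probes lie. A gene was called where limma gave a Benjamini-Hochberg adjusted p under 0.05 over all probes tested and the change was at least 2-fold; for the difference between the lines the adjusted p alone was used. A probe entered the test if some group in the comparison had it well above background throughout, that is, on each array of the group. The level of 1 gene is not set against that of another, because probes differ in brightness.

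Some libraries stood apart. The TRIM58 probe was well above background on 1 array of 11, that of the library labelled A549 mock 3, at -0.71, and lay between -5.64 and -4.63 on the other arrays. Whether this probe lies within the coding sequence of the vector is not given in the sources used here, so it is an incomplete check of the labels. The library labelled A549 mock 3 correlated with TRIM58-WT replicates 2 and 3 at r = 0.966 and 0.968 over expressed probes, and with mock replicates 1 and 2 at 0.960 and 0.953. TRIM58-WT replicates 2 and 3 differed by an SD of 0.19 on the log2 scale over 13888 probes, less than the 0.24 between the pair of arrays of the first mock sample. TRIM58-WT replicate 1 was on the first slide with mock replicate 2 and all HCC827 samples, and TRIM58-WT replicates 2 and 3 were on the second with the library labelled mock 3. Results are therefore also given without these libraries. Of 11 epithelial and adenocarcinoma markers, 7 were well above background on every array in A549 mock cells, 5 in A549 TRIM58-WT cells and 9 in each HCC827 group, while none of 7 fibroblast and none of 5 endothelial markers was so in any group. The summed linear signal of the epithelial markers, as multiples of the 75th percentile signal, was 1.63e+03 to 2.3e+03 in A549 mock, 1.1e+03 to 1.72e+03 in A549 TRIM58-WT, 1.48e+03 to 1.55e+03 in HCC827 mock and 1.7e+03 to 1.92e+03 in HCC827 TRIM58-WT cells. Of 6 leukocyte markers, 3 were at background on all arrays, CD3E and LAPTM5 among them, and 2 were well above background throughout in A549 mock, 1 in A549 TRIM58-WT, 3 in HCC827 mock and 2 in HCC827 TRIM58-WT cells. Their summed signal was 3.87 to 4.97, 1.7 to 2.14, 4.57 to 4.6 and 6.41 to 7.31 in these groups. The part of these differences in the results was not tested. Among the epithelial markers, NKX2-1 and SFTPB were on no A549 array well above background, nor was KRT19 on any A549 TRIM58-WT array. SFTPC was well above background on no HCC827 mock array. Every other epithelial marker was well above background on some array of each group.

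Integrins are receptors of an alpha and a beta chain that tie the cytoskeleton to the extracellular matrix and signal in both directions. In epithelium, the pair of ITGA6 and ITGB4 anchors keratin filaments to laminin at hemidesmosomes, and ITGB1 joins ITGA3 and ITGA6 as laminin receptors, ITGA1 and ITGA2 as collagen receptors and ITGA5 as the fibronectin receptor. ITGAV pairs with ITGB5 to bind vitronectin and with ITGB6, an epithelial chain, to bind fibronectin and the latent form of TGF-beta. ITGB4 has no partner other than ITGA6.

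ITGB4 and its partner ITGA6 were the members called lower in A549 cells with TRIM58-WT, ITGA6 by its brighter probe only. In this comparison 7 of the 10 genes were tested, 2 were called lower and none was called higher. Among all 11182 genes tested, 7.94% were called and 4.05% were called lower. The median change was -0.36 on the log2 scale over the 7 members and 0.03 over all genes. TRIM58-WT and mock replicates did not overlap for 5 of the 7 (ITGA3, ITGA5, ITGA6, ITGB4 and ITGB5), against 33.9% of all genes tested. ITGB4 stayed called with any single A549 library left out. ITGA6 stayed called without the library labelled mock 3, its mock value nearest to TRIM58-WT. It lost its call without mock replicate 1, mock replicate 2, TRIM58-WT replicate 2 or TRIM58-WT replicate 3.

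**Figure D1:**
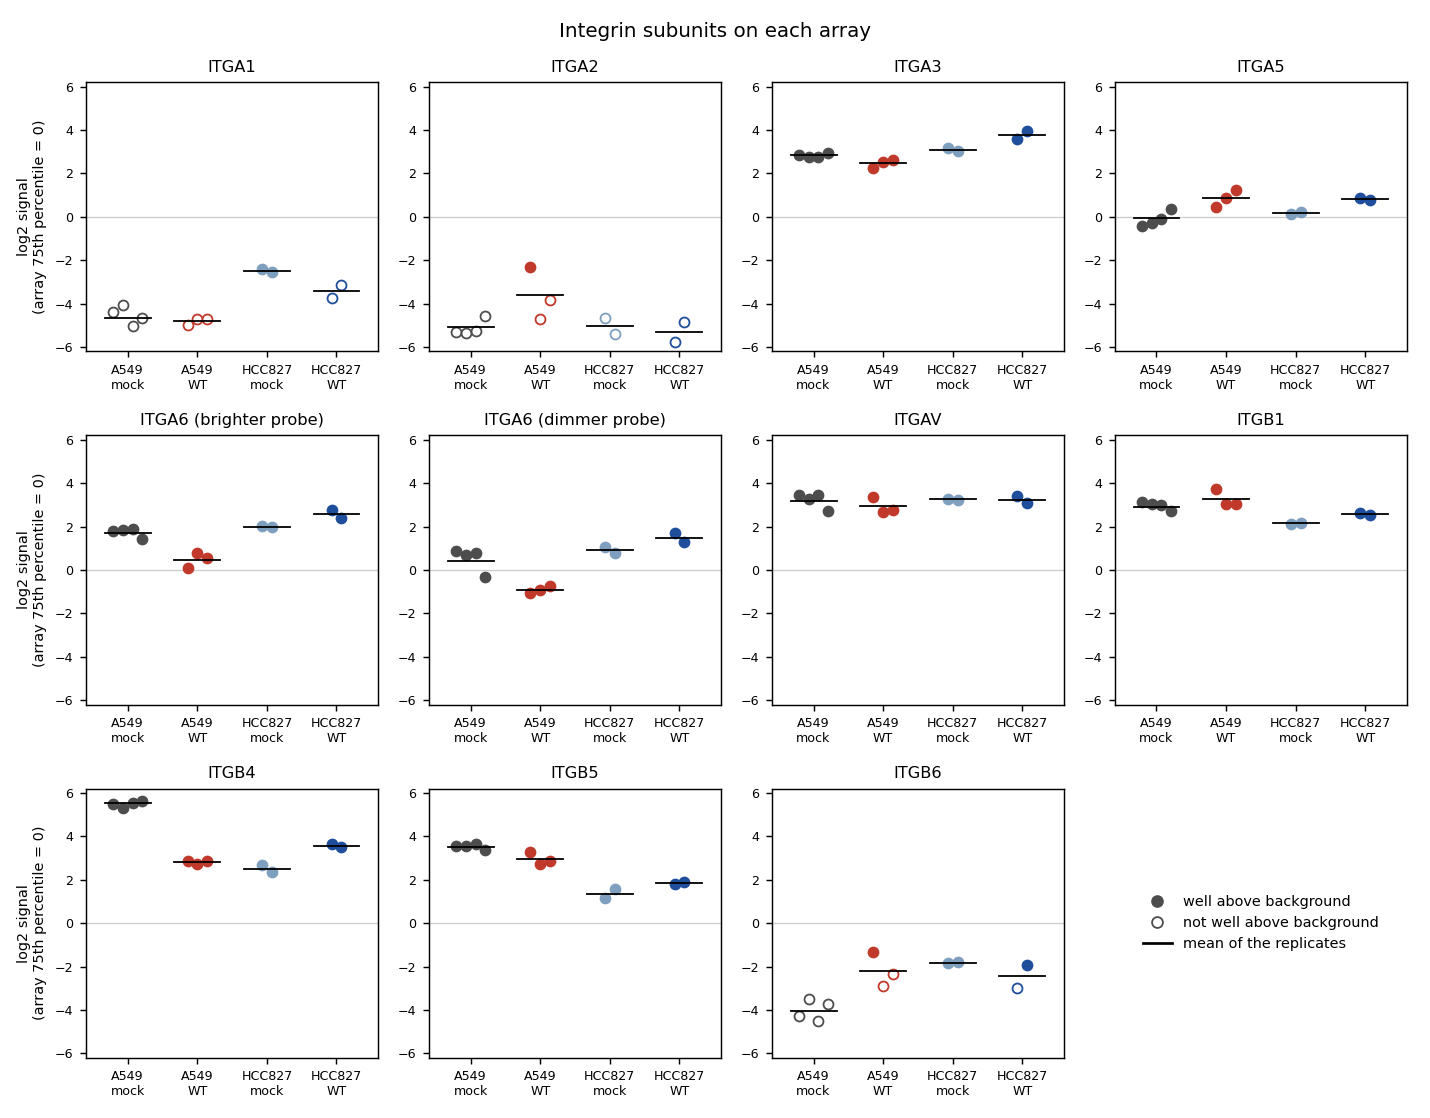
Log2 signal of the 11 integrin probes on every array, relative to the 75th percentile of the array, in the 4 groups. Filled points are well above background, open points are not, and the line is the mean of the replicates (in A549 mock cells, the first 2 points are arrays of the same sample). ITGB4 stands between 5.29 and 5.61 on the A549 mock arrays and between 2.71 and 2.86 with TRIM58-WT.

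ITGB4, the chain that links the laminin receptor to keratin, was at 5.39, 5.56 and 5.61 in the A549 mock replicates, the last being the library labelled mock 3. In the A549 TRIM58-WT replicates it was at 2.86, 2.71 and 2.86. The groups were far apart, with little spread inside either. ITGB4 fell by 2.71 on the log2 scale, or 6.56-fold (SE 0.15, 95% CI -3.08 to -2.34, n = 3 against 3, limma adjusted p = 0.000643). TRIM58-WT minus mock was -2.67 among arrays of the first slide and -2.66 among those of the second. Without the library labelled mock 3 the change was -2.67 (limma adjusted p = 0.000965), and with TRIM58-WT replicates 2 and 3 counted as 1 sample it was -2.70 (limma adjusted p = 0.00788).

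In HCC827 cells the same gene moved the other way without passing the test. ITGB4 was at 2.67 and 2.34 in the mock replicates and at 3.63 and 3.51 with TRIM58-WT. The change was 1.07 on the log2 scale (SE 0.17, 95% CI 0.61 to 1.53, n = 2 against 2, limma adjusted p = 0.0823). It passed when probes had to be well above background on every array (adjusted p = 0.0425) and when both lines shared a limma fit (adjusted p = 0.0422). The change in A549 minus that in HCC827 was -3.78 (SE 0.24, 95% CI -4.32 to -3.24, limma adjusted p = 0.000194). Ordered by level, ITGB4 was highest in A549 mock cells, followed by HCC827 TRIM58-WT, A549 TRIM58-WT and HCC827 mock cells, and no neighbours in that order overlapped.

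ITGA6, the alpha chain of the laminin receptors with ITGB4 and ITGB1, was at 1.82, 1.89 and 1.42 in the A549 mock replicates by its brighter probe. In the TRIM58-WT replicates it was at 0.10, 0.78 and 0.56. All mock values lay above all TRIM58-WT values, the nearest being the library labelled mock 3. ITGA6 fell by 1.23 on the log2 scale, or 2.35-fold (SE 0.24, 95% CI -1.81 to -0.65, limma adjusted p = 0.0303). The call rested on single libraries: adjusted p by limma was 0.144 without mock replicate 1, 0.127 without mock replicate 2, 0.072 without TRIM58-WT replicate 2, 0.113 without TRIM58-WT replicate 3 and 0.0906 with TRIM58-WT replicates 2 and 3 averaged, while the change stayed between -1.38 and -1.04 with any library left out. The dimmer probe gave -1.33 (SE 0.33, limma adjusted p = 0.059; with slide as a block it was called at -1.37, adjusted p = 0.0202, and 6 of 22 alternatives called it), with the library labelled mock 3 at -0.31 and the other mock replicates at 0.79 and 0.79. TRIM58-WT minus mock was -1.75 by the brighter probe on the first slide and -0.96 on the second.

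In HCC827 cells ITGA6 was at 2.03 and 1.97 in the mock replicates and at 2.75 and 2.38 with TRIM58-WT. Its change was 0.56 (SE 0.18, 95% CI 0.09 to 1.04, limma adjusted p = 0.199). The change in A549 minus that in HCC827 was -1.79 (SE 0.35, 95% CI -2.60 to -0.99, limma adjusted p = 0.0296), and -1.91 by the dimmer probe (limma adjusted p = 0.0738). Leaving out A549 mock replicate 1 or 2, TRIM58-WT replicate 3 or any HCC827 library raised the adjusted p of the brighter probe to between 0.0646 and 0.127. ITGB4 and ITGA6 were the 2 of 9 members tested whose change differed between the lines, against 4.61% of all genes tested.

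The promoter of ITGA6 is shown because this gene was called in A549 cells. RefSeq on GRCh38.p14 gave 13 promoters for 8 of the 10 genes, each from 250 bases before to 50 after a start. ITGA3 and ITGB4 had no match. ITGA6 had 2 starts, at chr2:172427086-172427385 and chr2:172427336-172427635 on the plus strand, whose windows share their ends. Capitals mark any of 4 motifs found on either strand: the GC box GGGCGG, the CACCTG form of the E-box, the AP-1 site TGANTCA and the TATA box TATAAA.
ITGA6 first start: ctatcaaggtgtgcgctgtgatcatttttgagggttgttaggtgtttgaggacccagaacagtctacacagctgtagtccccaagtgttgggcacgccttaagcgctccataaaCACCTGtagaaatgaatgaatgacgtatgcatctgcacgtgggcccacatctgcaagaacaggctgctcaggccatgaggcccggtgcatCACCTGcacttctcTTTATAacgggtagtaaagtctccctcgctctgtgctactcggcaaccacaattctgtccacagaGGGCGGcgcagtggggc
ITGA6 second start: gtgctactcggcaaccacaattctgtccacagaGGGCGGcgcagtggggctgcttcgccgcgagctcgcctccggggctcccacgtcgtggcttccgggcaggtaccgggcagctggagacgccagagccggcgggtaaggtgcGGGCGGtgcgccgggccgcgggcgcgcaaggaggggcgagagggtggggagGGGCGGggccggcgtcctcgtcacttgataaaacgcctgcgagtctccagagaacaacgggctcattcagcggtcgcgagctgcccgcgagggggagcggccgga
The window of the first start had 53.0% G and C, 11 CpG, 2 CACCTG, 1 GC box and 1 TATA box, and that of the second had 72.0% G and C, 38 CpG and 3 GC boxes. Over 35116 promoters of the same length the medians were 58.7% G and C and 14 CpG, and 45.0% held a GC box, 20.6% a CACCTG, 11.5% a TATA box and 7.7% an AP-1 site. A match to these letters describes the sequence and does not show that a factor binds there.

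The other chains that pair with ITGB1 were not called in either line. ITGA3, an alpha chain of laminin receptors, was at 2.79, 2.76 and 2.93 in A549 mock cells and at 2.25, 2.54 and 2.62 with TRIM58-WT. These groups did not overlap, and the change was -0.36 (SE 0.17, 95% CI -0.77 to 0.05, limma adjusted p = 0.254). In HCC827 cells ITGA3 was at 3.17 and 3.02 in mock cells and 3.61 and 3.95 with TRIM58-WT, with a change of 0.68 (limma adjusted p = 0.154). The change in A549 minus that in HCC827 was -1.04 (SE 0.26, limma adjusted p = 0.07). This difference was called in 4 of 24 alternatives, among them quantile normalization (-1.06, limma adjusted p = 0.0437).

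ITGA5, the fibronectin receptor chain, had higher values with TRIM58-WT in both lines. It was at -0.36, -0.08 and 0.36 in A549 mock cells and at 0.46, 0.88 and 1.23 with TRIM58-WT. The groups did not overlap, although the library labelled mock 3 and TRIM58-WT replicate 1 came close to each other. The change was 0.88 (SE 0.28, 95% CI 0.21 to 1.55, limma adjusted p = 0.109). In HCC827 cells it was at 0.14 and 0.21 in mock cells and 0.85 and 0.79 with TRIM58-WT, a change of 0.65 (SE 0.13, limma adjusted p = 0.108). ITGA5 had a change of 1.27 and was called in A549 cells (limma adjusted p = 0.00493) in a fit without the library labelled mock 3 and TRIM58-WT replicate 1, which was the only alternative of 22 that called it and was added once the data had been seen.

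The shared chains ITGB1 and ITGAV had small differences. ITGB1, the common beta chain, lay between 2.70 and 3.08 in A549 mock cells and between 3.03 and 3.72 with TRIM58-WT, and these ranges overlapped. The change was 0.34 in A549 cells (95% CI -0.24 to 0.93), where its sign turned when arrays were shifted by their medians, and 0.45 in HCC827 cells (95% CI 0.09 to 0.80). ITGAV, the alpha chain of the vitronectin and TGF-beta binding receptors, lay between 2.66 and 3.46 over all A549 replicates. Its change was -0.25 in A549 cells (95% CI -0.94 to 0.44) and -0.02 in HCC827 cells (95% CI -0.46 to 0.42), so a 2-fold change lay outside the interval in both lines. None of these changes had a limma adjusted p under 0.05.

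ITGB5, the beta chain of the vitronectin receptor, was at 3.56, 3.66 and 3.37 in A549 mock cells and at 3.29, 2.73 and 2.87 with TRIM58-WT. The groups did not overlap, and the library labelled mock 3 and TRIM58-WT replicate 1 were the nearest values. The change was -0.57 (SE 0.20, 95% CI -1.06 to -0.08, limma adjusted p = 0.145). In HCC827 cells it was at 1.15 and 1.58 in mock cells and 1.81 and 1.90 with TRIM58-WT, a change of 0.49 (limma adjusted p = 0.261). The change in A549 minus that in HCC827 was -1.06 (limma adjusted p = 0.109).

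**Figure D2:**
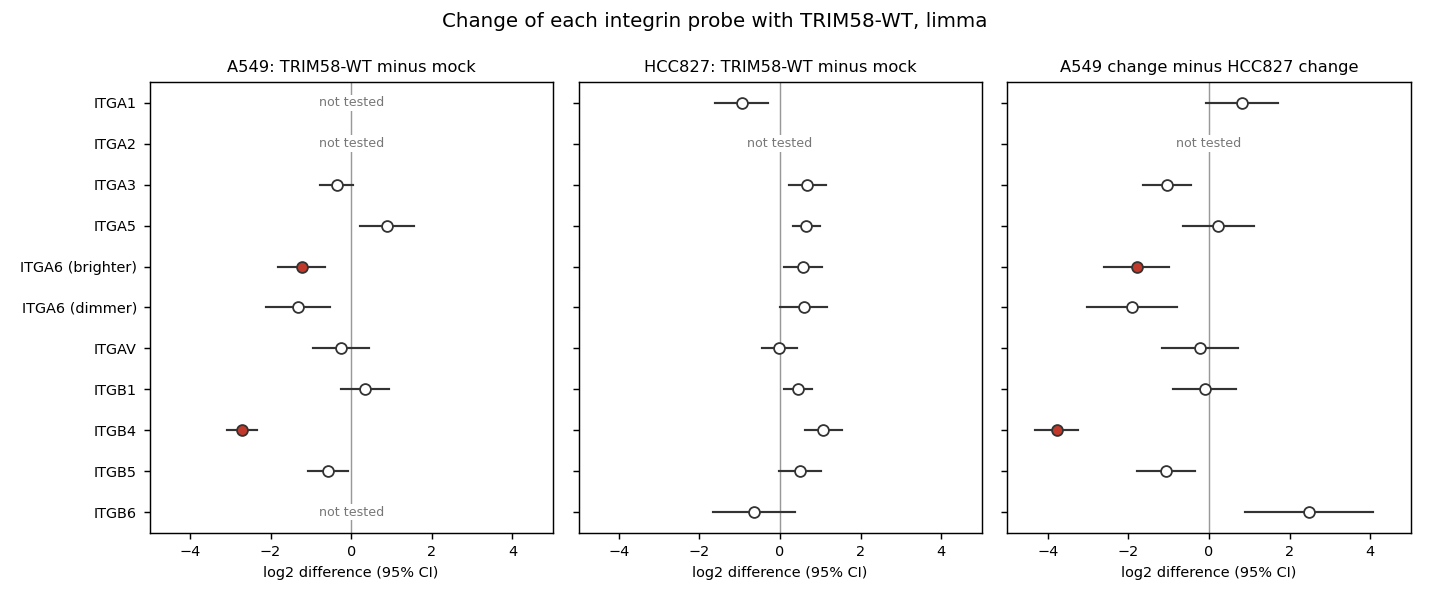
Change of each integrin probe with TRIM58-WT relative to mock in A549 cells, in HCC827 cells, and the change in A549 minus that in HCC827, as log2 difference with its 95% confidence interval from limma. Filled points were called, open points were not. ITGB4 and the brighter probe of ITGA6 were called at -2.71 and -1.23 in A549 cells and at -3.78 and -1.79 for the difference, and no probe was called in HCC827 cells. ITGA1 and ITGB6 rest in part on readings that were not well above background.

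Signals near background set the limit for the remaining chains. ITGA1, a collagen receptor chain, was well above background on both HCC827 mock arrays, at -2.40 and -2.56, and on none of the other 9 arrays. In HCC827 TRIM58-WT cells it read -3.74 and -3.12, and the change was not called (fitted at -0.95, 95% CI -1.62 to -0.29, limma adjusted p = 0.155). ITGA2, the other collagen receptor chain, was well above background only in A549 TRIM58-WT replicate 1, at -2.31, and was tested in no comparison. Both genes lie on chromosome 5, where the 490 genes tested in A549 cells had a median change of -0.48.

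ITGB6 was well above background on none of the 4 A549 mock arrays, on 1 of 3 A549 TRIM58-WT arrays, on both HCC827 mock arrays and on 1 of 2 HCC827 TRIM58-WT arrays. It read -3.87, -4.49 and -3.74 in A549 mock and -1.31, -2.91 and -2.36 in A549 TRIM58-WT cells, where replicate 1 was the array above background. These values do not overlap, but the probe was not tested in A549 cells because no A549 group had it above background throughout. In HCC827 cells it was at -1.82 and -1.79 in mock cells and at -2.99 and -1.91 with TRIM58-WT, with a change of -0.64 (SE 0.38, limma adjusted p = 0.4). The difference between the lines was not called, and its size would rest on readings at background.

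Over the HCC827 comparison, 9 of the 10 genes were tested and none was called by limma, where 1.07% of 12191 genes were called. An unadjusted p under 0.05 was reached by 6 of the 9, against 21.8% of all genes. The 6 include ITGA1, which like ITGB6 entered the test only through the mock group. The median change was 0.49 over the members and 0.01 over all genes, with 6 members above 0 and 3 below. With 2 replicates in each group the 95% intervals were wide for some members, from -1.67 to 0.38 for ITGB6, and narrower for others, from 0.31 to 0.99 for ITGA5.

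The mock cells of the lines were also compared with each other. Relative to A549 mock cells, HCC827 mock cells had 4 of 9 tested members called, ITGA1 and ITGB6 higher and ITGB4 and ITGB5 lower. Of all genes tested 31.9% were called, so this count is not read as a result about integrins. ITGA1 and ITGB6 were well above background on no A549 mock array. They entered the test only through HCC827 mock cells, where they were high, and the count includes them. The median difference was 0.20 over the members and 0.06 over all genes. ITGB4 was lower in HCC827 by 3.02 on the log2 scale or 8.11-fold, a difference of -3.02 (SE 0.16, limma adjusted p = 2.75e-06), with 2.67 and 2.34 against 5.39 to 5.61. ITGB5 was lower by 4.5-fold, a difference of -2.17 (SE 0.22, limma adjusted p = 9.45e-05), with 1.15 and 1.58 against 3.37 to 3.66. On the first slide alone, which held both lines, these differences were -3.03 and -2.26.

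ITGB6 was higher in HCC827 mock than in A549 mock cells (means -1.81 and -4.03, limma adjusted p = 0.00649), and so was ITGA1 (means -2.48 and -4.65, limma adjusted p = 0.000327). Against the dimmest signal that counted as well above background on the A549 arrays, they were 2.12-fold and 1.33-fold higher, which is no firm limit. With normexp, a background correction that adds 50 to every signal, both differences fell below these sizes. They were 0.20 for ITGB6 (limma adjusted p = 0.286) and 0.13 for ITGA1 (limma adjusted p = 0.482), and neither was called. ITGB1 was lower by 1.71-fold, a difference of -0.78 (SE 0.24, limma adjusted p = 0.0291), short of the 2-fold limit, but with slide as a block it was called at -1.01 (limma adjusted p = 0.0018). ITGA3, ITGA5, ITGA6 and ITGAV differed between the mock lines by 0.07 to 0.29, with limma adjusted p between 0.261 and 0.858, and the sign of ITGAV turned when slide was a block.

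The promoter of ITGB6 is shown because this gene was called between the mock lines, a call lost with normexp. Its sequence also stands at the low end of the members in G and C. It lies at chr2:160200223-160200522 of GRCh38.p14 on the minus strand, with capitals as for ITGA6.
ITGB6: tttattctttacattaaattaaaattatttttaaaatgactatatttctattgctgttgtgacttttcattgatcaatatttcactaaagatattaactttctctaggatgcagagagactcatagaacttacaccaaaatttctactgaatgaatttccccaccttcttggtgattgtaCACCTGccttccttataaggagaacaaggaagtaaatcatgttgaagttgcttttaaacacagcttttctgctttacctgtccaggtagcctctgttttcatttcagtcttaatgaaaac
This window had 31.7% G and C, no CpG and 1 CACCTG, and none of the other motifs. The windows of the other members, all starts included, had between 40.7% and 78.3% G and C and between 1 and 39 CpG.

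Genes whose levels ran most like those of the called members over the 10 replicates were sought among 12812 tested genes. These replicates share their arrays and fall into 2 lines, so the correlations describe the data only. For ITGB4 they were SLC12A7 (r = 0.983), SMIM13 (0.978) and RHPN2 (0.976), and for ITGA6 MYOF (0.989), SELENOI (0.983) and RIOK3 (0.979). For ITGB5 they were TBX3 (r = 0.995), PTGR1 (0.992) and GLP2R (0.989). For ITGA1 they were SPRY2 (r = 0.992), HAGLR (0.986) and G3BP2 (0.984), and for ITGB6 RCN3 (0.974), DIPK1B (0.970) and LINC00205 (0.948), all of which compare in part values at background.

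Matrix ligands of the integrins moved in both directions in A549 cells. Of 25 ligand genes listed, 20 were tested with TRIM58-WT, of which 9 were called higher, 2 lower and 9 neither, where 7.94% of all genes tested were called. Their median change was 0.87, against 0.03 over all genes. Some of the 20, COL1A1 and TNC among them, were above background on no A549 mock array. They entered the test only through the TRIM58-WT group, where they were high. VTN and LTBP1 entered only through the mock group. The counts and the median include such genes. Among those called lower was LAMB3, which belongs with LAMA3 to the laminin that ITGA6 and ITGB4 bind. In HCC827 cells 15 were tested and none was called by limma, with a median of 0.71. The count in A549 cells depended on single libraries: without mock replicate 1, mock replicate 2 or TRIM58-WT replicate 3 only 1 was called higher and none lower, and without TRIM58-WT replicate 2 the counts were 3 and 0, while without the library labelled mock 3 they were 9 and 2.

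LAMB3, the beta chain of that laminin, was at 4.75, 4.81 and 3.68 in A549 mock cells and at 2.86, 2.51 and 2.55 with TRIM58-WT. The library labelled mock 3 was the mock value nearest to TRIM58-WT, and the groups did not overlap. LAMB3 changed by -1.78 (SE 0.33, limma adjusted p = 0.0272), a call lost in 8 of 22 alternatives. LAMA3, the alpha chain, was at 2.31, 2.40 and 0.19 in mock cells and at 1.90, 0.31 and 0.48 with TRIM58-WT, which overlapped, with a change of -0.74 (limma adjusted p = 0.574). In HCC827 cells the changes were 0.74 for LAMB3 and 0.71 for LAMA3, neither of them called. LAMB3 was 1 of the ligands whose change differed between the lines, at -2.52 (limma adjusted p = 0.0252), a call lost in 11 of 24 alternatives. COL6A1 was another, at 2.91 (limma adjusted p = 0.0154), a call lost without any HCC827 library (adjusted p 0.0518 to 0.084). COL1A1 was called too, but it was above background on 1 of the 4 HCC827 arrays and lost the call with normexp (limma adjusted p = 0.127), so no size is given.

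Collagens were among the ligands that rose in A549 cells. COL6A1, a chain of the beaded-filament collagen, was at -1.25, -0.75 and -0.19 in the mock replicates and at 2.50, 3.07 and 3.26 with TRIM58-WT. It rose by 3.67 on the log2 scale (SE 0.33, limma adjusted p = 0.00306). COL4A1, a basement membrane collagen, was at 0.01, 0.17 and 1.36 in mock cells and at 3.14, 3.28 and 3.57 with TRIM58-WT, a change of 2.82 (SE 0.38, limma adjusted p = 0.0104). That call was lost in 5 of 22 alternatives. COL1A1, a fibrillar collagen, was above background on no A549 mock array but throughout the TRIM58-WT arrays, at -1.46, 0.64 and 0.65 (adjusted p of limma = 0.0105). Its TRIM58-WT mean was 7.13-fold above the dimmest signal that counted as well above background on the mock arrays, which is no firm limit. With normexp the change of COL1A1 was 1.23 and not called (limma adjusted p = 0.0647). The groups of all 3 collagens did not overlap, but these genes were named because they were called. Of all genes tested in A549 cells, 33.9% did not overlap. Of the 7 fibroblast markers listed, none stood well above background in any A549 TRIM58-WT library. Their summed linear signal there was 0.294 to 0.403 times the 75th percentile signal, against 0.32 to 1.25 times in A549 mock cells. The source of the collagen signal was not tested. TGFB1, whose latent form ITGAV and ITGB6 bind, was at -1.26, -1.16 and 0.72 in mock cells and at 1.72, 2.08 and 2.30 with TRIM58-WT, a change of 2.60 (SE 0.54, limma adjusted p = 0.0369). This call was lost in 8 of 22 alternatives, among them leaving out any A549 library except the one labelled mock 3. FN1, the ligand of ITGA5, was above background on 1 array in each TRIM58-WT group and on no mock array, and was not tested.

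**Figure D3:**
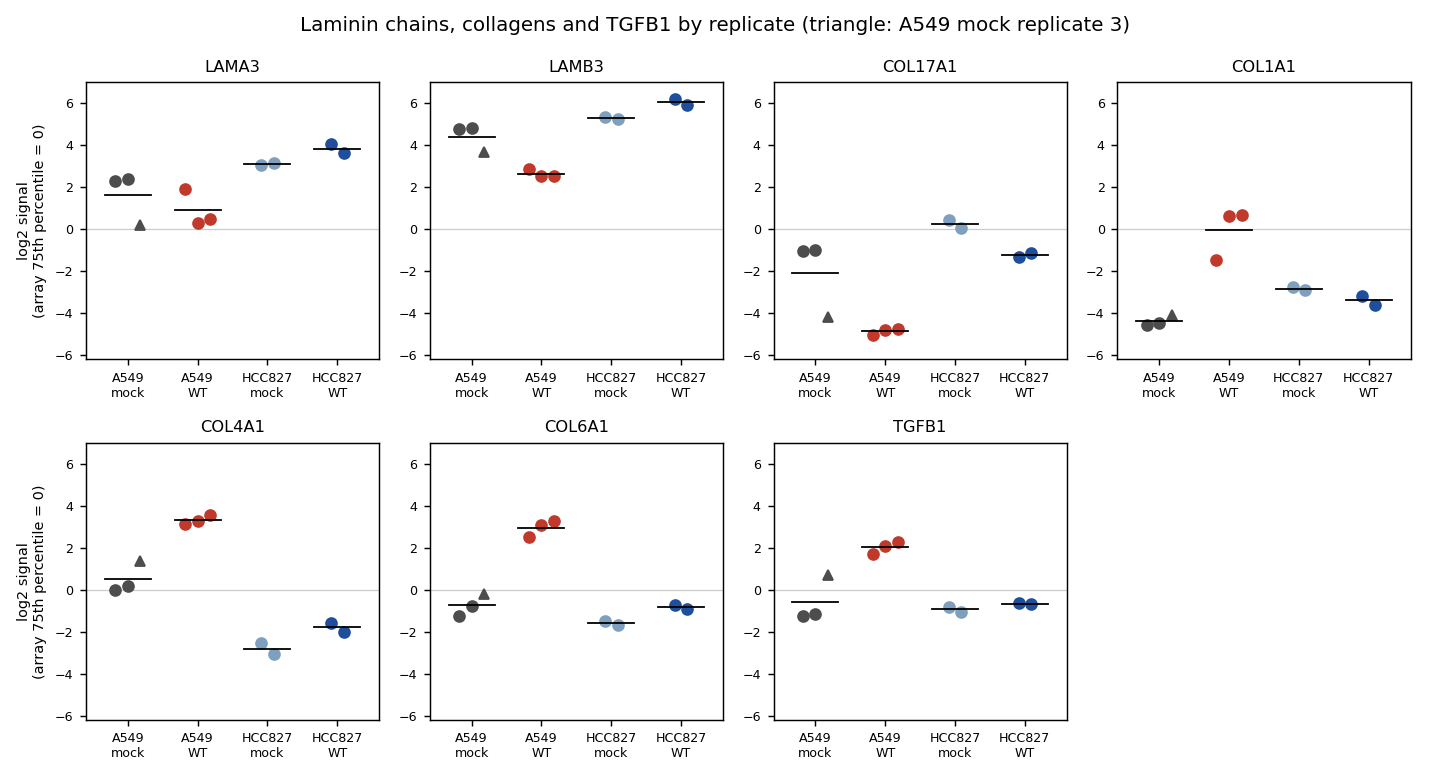
Log2 signal of 7 ligand and partner genes in each replicate, relative to the 75th percentile of the array, with the mean of each group as a line. The triangle is the library labelled A549 mock 3, which lies between the other mock and the TRIM58-WT replicates for LAMB3, COL4A1 and TGFB1, at 3.68, 1.36 and 0.72.

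Of 14 hemidesmosome and membrane partners, 12 were tested in A549 cells and none was called by limma. Without the library labelled mock 3, 1 was called higher and 4 lower. PLEC, which joins ITGB4 to keratin, changed by 0.43 (limma adjusted p = 0.476), and DST, the other plakin of the hemidesmosome, by -0.13 (limma adjusted p = 0.739), a sign that turned with normexp. COL17A1, a hemidesmosome collagen that binds ITGB4, read -1.07, -1.02 and -4.20 in A549 mock cells and -5.05, -4.80 and -4.79 with TRIM58-WT. It was well above background on 3 of 4 mock arrays, all but that of the library labelled mock 3, and on no TRIM58-WT array, so it was not tested. TSPAN8, an integrin-associated tetraspanin and the other gene not tested, read 1.73, 1.63 and -4.35 in mock cells and -1.25, -4.55 and -4.55 with TRIM58-WT, and the library labelled mock 3 made the groups overlap. In HCC827 cells COL17A1 was at 0.41 and 0.06 in mock cells and at -1.32 and -1.15 with TRIM58-WT, a change of -1.47 (limma adjusted p = 0.0618). Of the 14 partners tested there, TSPAN8 was called, at 2.66 and 2.97 in mock cells and -0.15 and 0.39 with TRIM58-WT, a change of -2.69 (limma adjusted p = 0.0388). Without mock replicate 1, mock replicate 2 or TRIM58-WT replicate 1 of HCC827 its adjusted p by limma was 0.182, 0.117 and 0.0745.

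Of 30 proteins that bind integrin tails or build focal adhesions, 29 were tested in A549 cells, where 2 were called higher and none lower, a share near the 7.94% of all genes. Without the library labelled mock 3 these counts were 4 and 1, without TRIM58-WT replicate 1 they were 1 and 2, and with any other single A549 library left out they were 1 and 0. TNS1, which links integrin tails to actin, was at 0.15, 0.17 and -0.19 in mock cells and at 1.80, 1.87 and 2.05 with TRIM58-WT. Its change was 1.87 (SE 0.18, limma adjusted p = 0.00347). LIMS2, of the complex with integrin-linked kinase, changed by 3.40 (SE 0.66, limma adjusted p = 0.0301), with the library labelled mock 3 at 0.05 and the other mock replicates at -2.59 and -2.17. The call of LIMS2 was lost in 8 of 22 alternatives. The integrin activators TLN1, FERMT1 and FERMT2 changed by 0.39, -0.82 and 0.72, with limma adjusted p of 0.205, 0.0727 and 0.106. In HCC827 cells none of 25 tested was called by limma. Of the 29 tested for a difference between the lines, 2 were called. DAB2, which binds beta tails, was among them, but it was above background on no HCC827 mock array and on 1 of 2 HCC827 TRIM58-WT arrays, and with normexp it was not called (limma adjusted p = 0.126), so no size is given.

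Between the mock lines, 14 of 29 tail-binding and focal adhesion genes tested were called, 1 higher in HCC827 and 13 lower. Of all genes tested 31.9% were called, which is also the share to set beside the counts of ligands and partners. TNS4, a tensin of epithelial cells, was lower by 7.68 on the log2 scale, a difference of -7.68 (SE 0.18, limma adjusted p = 5.09e-08). TLN1, which activates integrins from within, differed by -1.79 (limma adjusted p = 4.33e-05). Of 18 ligands tested, 4 were higher and 6 lower in HCC827. SPP1, a ligand of ITGAV integrins, was called lower (adjusted p of limma = 1.93e-05). Against the dimmest signal that counted as well above background on the HCC827 mock arrays, it was 419-fold higher in A549 mock cells. The fold sizes below were set in the same way, which gives no firm limit. Of 14 hemidesmosome and membrane partners, 5 were higher and 5 lower, with PLEC at -1.75 (limma adjusted p = 0.00269) and DST at 1.81 (limma adjusted p = 0.000186). Among the other genes called, the matrix proteins TNC and CCN1 were higher in HCC827, TNC by 17.5-fold and CCN1 by 4.32 on the log2 scale. VTN and LTBP1 were lower by 21.5-fold and 4.7-fold. The adaptor PXN was higher by 1.03 on the log2 scale, while DAB2 and TNS1 were lower by 16.1-fold and 9.67-fold. The membrane partners CD9, CD47 and CAV1 were higher by 2.08, 1.88 and 1.83, and the tetraspanin CD82 differed by -2.15. CD151, another tetraspanin, was at 3.90 and 6.64 in the HCC827 mock replicates, so its difference of -2.79 became -1.42 without the first (limma adjusted p = 0.171) and -4.17 without the second, and it also lost its call without the library labelled A549 mock 3 (limma adjusted p = 0.0545). PXN lost its call in 10 of 24 alternatives, among them leaving out either HCC827 mock replicate. With normexp, differences of dim probes shrank below these sizes, to log2 values of 1.91 for TNC, -1.89 for VTN, -1.89 for DAB2, -1.55 for TNS1 and -5.97 for SPP1. LTBP1, CD82 and DST fell short of 2-fold at -0.99, -0.96 and 0.84.

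Of 16 other integrin genes listed, 3 were tested in A549 cells and 4 in HCC827 cells, and none was called by limma in any of the 4 comparisons. Without A549 TRIM58-WT replicate 3, 1 was called higher in A549 cells. ITGAE, a chain known from lymphocytes of epithelia, lay between 2.06 and 2.35 in A549 mock and between 2.55 and 2.70 in TRIM58-WT cells, a change of 0.40 (limma adjusted p = 0.176). ITGB3 and ITGA11 were singled out after their values were seen. ITGB3, a partner of ITGAV, read -5.35, -5.23 and -4.29 in A549 mock cells, on no array well above background, and -1.25, -2.14 and -2.10 with TRIM58-WT, where 2 of 3 arrays were. ITGA11, a collagen receptor chain, read -4.71, -4.89 and -3.41 in mock cells and -0.83, -2.48 and -2.46 with TRIM58-WT, with 1 array above background. Neither gene overlapped between the groups, and neither was tested.

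**Figure D4:**
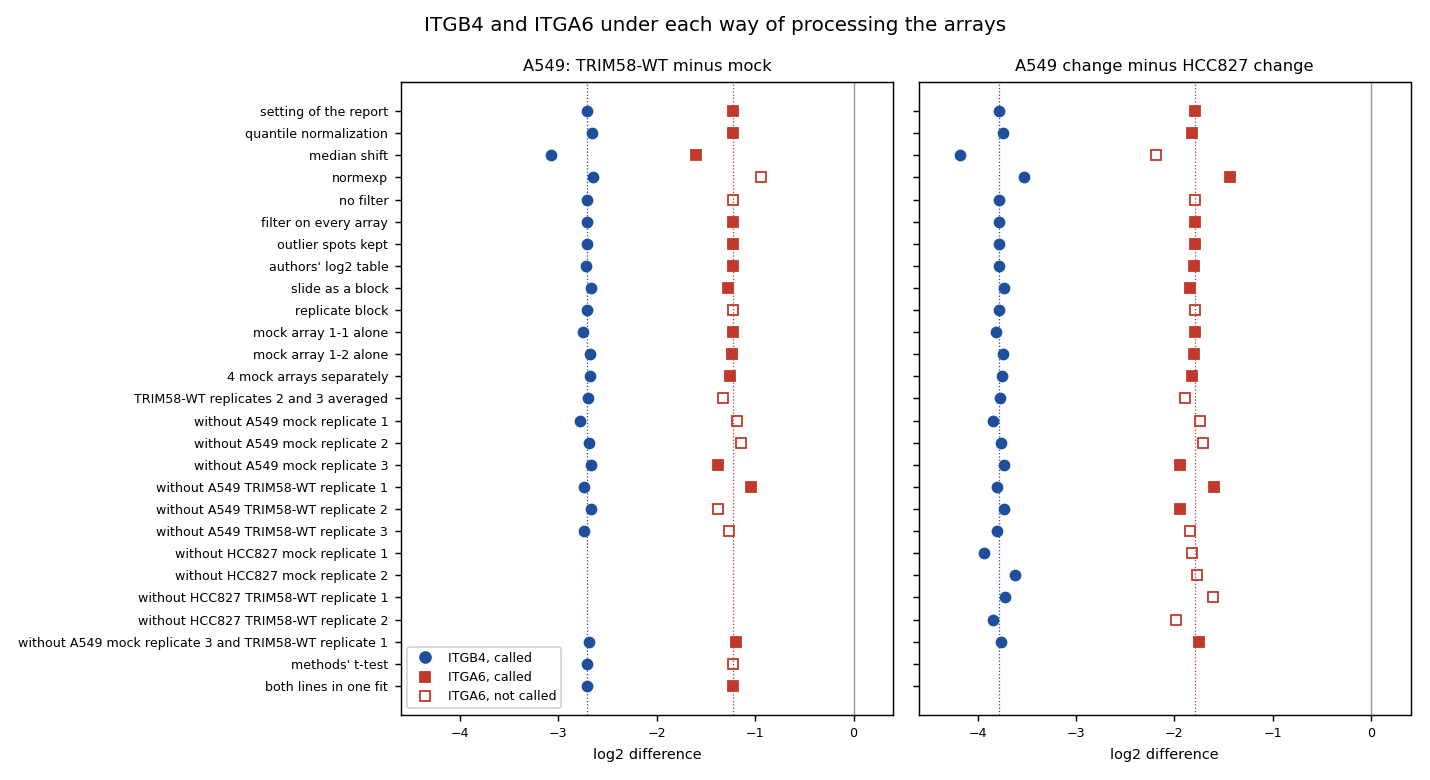
Log2 difference of ITGB4 and of the brighter ITGA6 probe under every way of processing the arrays, for A549 TRIM58-WT against mock and for the change in A549 minus that in HCC827. Filled symbols were called, open symbols were not, and dotted lines mark the values of the text. ITGB4 was called in each alternative of both comparisons, at -3.08 to -2.65 and at -4.18 to -3.53, while ITGA6 lost its call in 9 of 22 and in 11 of 24.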

How the data were processed

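Total RNA of 10 cell samples was measured on 11 Agilent 1-colour arrays. The deposited files hold spot intensity as the authors' scanner software wrote it (Agilent Feature Extraction 11.5.1.1 per the file headers, 10.7 per the labels), background-subtracted and detrended. The authors' log2 table (column medians -0.12 to 0.46) was an alternative: against the values used here, each probe shifted by its median difference, 95.5% of its values lay within 0.01 and the largest difference was 4.93. Its centring of each probe is not stated.

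Spots of a probe were averaged without flagged outliers and log2 signals were shifted by the 75th percentile of each array, whose signal ran from 56.6 to 125. Between 40.1% and 50% of probes were well above background. Depth has no meaning here, and the number of arrays limits precision. Probes were named through RefSeq accessions (27241 of 42405), and the brightest probe stood for a gene. limma 3.58.1 (R 4.3.3) was fitted to the groups compared, with adjustment over all probes tested, and was tested on simulated data. The member genes, the gene lists and the rule for named genes (all members, fixed partner genes, and at most 3 called genes per list, comparison and direction, and for called members the 3 genes most like them) were chosen with earlier results of these data known. The slides were the batches known, and HCC827 was on slide 1 only. Some genes of the lists are counted but not reported here by name. Alternatives changed scaling (quantile or median shift), background correction (normexp, a model of signal plus background), filter, outliers, blocks, arrays and libraries.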

Additional observations from a re-analysis of the deposited data

Results flagged for a closer look

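The change of ITGB4 with TRIM58-WT in A549 minus that in HCC827 was -3.78 on the log2 scale, and that of ITGA6 was -1.79. Both passed a test of the difference between the lines by limma, with adjusted p of 0.000194 and 0.0296. ITGB4 passed in all 24 alternatives and ITGA6 in 13 of 24.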

How the results depend on the processing

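Members called are counted first. In A549 cells 2 were called, and 1 with normexp, without a filter, with the methods' t-test, with TRIM58-WT replicates 2 and 3 averaged or with the dimmer ITGA6 probe; with single libraries left out, 1 to 2. In HCC827 cells none was called, and 1 with the filter on every array or both lines in 1 fit; 0 to 0 with single libraries left out. For the difference 2 were called, 1 with the median shift, no filter, the averaged replicates or the dimmer ITGA6 probe, 4 with slide as a block, and 1 to 3 with single libraries left out. ITGA3 was called for the difference as well with quantile normalization (limma adjusted p = 0.0437) and with the 4 A549 mock arrays taken separately (limma adjusted p = 0.0343). Between the mock lines 4 were called, 2 with normexp or the filter on every array, 5 with slide as a block, and 4 to 4 with single libraries left out. Another alternative left out the library labelled mock 3 and TRIM58-WT replicate 1, and was chosen after the data were seen because both stood apart. Its counts were 3 in A549, 6 for the difference and 4 between the mock lines. As the libraries left out were chosen from these same data, its larger counts carry no weight here.

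No pairing by replicate number was seen in A549 cells. Deviations of same-numbered A549 samples correlated at 0.50, -0.42 and 0.50, and those of differently numbered ones at -0.59 to 0.57. In HCC827 same-numbered samples gave 0.08, a single value, since with 2 replicates in a group the deviations mirror each other. With a replicate block the counts were 1 in A549, 0 in HCC827, 1 for the difference and 4 between the mock lines.

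Signs turned only in changes that were not called. ITGB1 in A549 was -0.03 with the median shift. ITGAV in HCC827 was 0.00 with quantile normalization, 0.01 with the median shift, and -0.17 to 0.13 with single libraries left out. For the difference, ITGA5 was -0.17 with the median shift and -0.06 with normexp, and ITGB1 was 0.01 with TRIM58-WT replicates 2 and 3 averaged, and -0.44 to 0.01 with libraries left out. ITGAV between the mock lines was -0.24 with slide as a block, -0.08 with a replicate block, and -0.16 without the library labelled mock 3, alone or with TRIM58-WT replicate 1. Among partners, DST in A549 was 0.01 with normexp and -0.29 to 0.01 with libraries left out. In HCC827, with libraries left out, DST was -0.03 to 0.20 and FERMT2 -0.00 to 0.26, and FERMT2 was -0.09 with normexp. For the difference TLN1 was -0.28 with the median shift, COL17A1 0.33 with normexp and PLEC -0.61 to 0.10 with libraries left out. TGFB1 between the mock lines was 0.21 with slide as a block, 0.03 with a replicate block and -0.71 to 0.28 with libraries left out. The cause was not tested.

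Over all probes, 1171 were called in A549 (24 with the methods' t-test to 2193 without the library labelled mock 3, and 4691 without both libraries that stood apart), 173 in HCC827 (0 to 633), 796 for the difference (224 to 2216, and 7848) and 5873 between the mock lines (3029 to 6798). The median shift moved the median of all genes to -0.34 in A549 and -0.38 for the difference, and the share of calls that were higher from 49% to 24.7% in A549, from 45.9% to 27.4% for the difference and from 30.5% to 42.7% in HCC827.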
